A study of Mus musculus with 20 samples.

Results

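Genes for the uptake and binding of fatty acids were followed in 20 arrays of mouse aorta RNA. The group was chosen by name, with earlier results of these data known. It holds 9 genes: Lpl, Gpihbp1, Angptl4, Cd36, Slc27a1, Fabp3, Fabp4, Fabp5 and Acsl1. They were found by the probe sets annotated with exactly 1 of these symbols, which gave 18 of 34945 such probe sets and 8 of 18193 genes. Acsl1, a long-chain acyl-CoA synthetase, had 0 such probe sets and was not analysed here. All 8 genes passed the filter on low signal, as did 11076 genes in all.

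Fatty acids reach cells from circulating lipoproteins and from albumin. Lipoprotein lipase (Lpl) splits the triglyceride of lipoproteins, Gpihbp1 carries it across the capillary endothelium and holds it at the lumen, and Angptl4 inhibits it. Cd36 and the transport protein Slc27a1 (FATP1) move the released fatty acids into cells, where the small carrier proteins Fabp3 (heart type), Fabp4 (adipocyte type) and Fabp5 (epidermal type) bind them. Several of these genes are textbook targets of PPARγ, the nuclear receptor of fat storage that thiazolidinedione drugs activate. In the artery wall they are known from endothelial cells, macrophages and the fat that surrounds the vessel.

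The study measured aortas of adult C57BL/6J mice that ate chow alone or chow with rosiglitazone, a thiazolidinedione. The daily dose was 3 or 10 mg/kg and the treatment lasted 2 or 14 days, and the groups are named below by both, as in the 10 mg 14-day group. A second experiment compared mice with a knock-in of the dominant-negative P465L mutation at the endogenous PPARγ gene with their wild-type littermates, both on standard chow. An array held RNA pooled from 8 aortas, so its value is a mean over mice. The chow, littermate and P465L groups had 3 arrays each, as had the rosiglitazone groups, apart from the 10 mg 14-day group with 2. The labels do not say whether the knock-in mice carried 1 or 2 mutant alleles, and the mutation is present in every cell type. The same chow arrays served all 4 rosiglitazone groups. Levels below are log2(signal + 72), on which a difference of 1 is a doubling of signal + 72, and levels of different genes are not compared.

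The tissue label was checked against marker genes. All 11 smooth muscle markers passed the filter, with a mean level of 14.68 to 15.05 in every array, and so did all 13 endothelial markers. Markers of fat were also bright: 13 of 18 listed adipocyte markers and 8 of 9 listed brown adipocyte markers passed, and Lep and Zic1 were measured but lay under the filter. Skeletal muscle markers ranged from 7.91 to 12.94 between arrays. Transcripts of tissues other than the vessel wall were thus present in the pools.

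Positions in the genome were taken from RefSeq (GRCm38). Fabp5 (chr3:10012585-10016610) and Fabp4 (chr3:10204342-10208616) are neighbours in a cluster, 187.7 kb apart, with Pmp2 and Fabp9 between them and Fabp12 beyond. Those 3 relatives were under the filter. Fabp3 lies apart at chr4:130308738-130315463, Cd36 at chr5:17781690-17888959, Lpl at chr8:68880555-68906932, Slc27a1 at chr8:71568728-71587307, Gpihbp1 at chr15:75596630-75598213 and Angptl4 at chr17:33774900-33781575.

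PPARγ binds DNA with its partner RXR at a direct repeat of AGGTCA spaced by 1 base, and the upstream sequences were searched for it. RefSeq promoter windows (GRCm38.p6) were matched for 4 of the 9 genes, Fabp3, Cd36, Slc27a1 and Acsl1, and not for Fabp4, Fabp5, Lpl, Gpihbp1 and Angptl4. In the 250 bases before the start, on both strands, 0 of their windows held the full repeat, which 11 of 32851 windows hold (0.0335%). A single AGGTCA, which any full repeat also contains, is in 14% of windows. Among these genes it was found in Cd36 alone, on the opposite strand, 228 bases before the start. The Cd36 window lies within the span of the gene given above, so the start it precedes is an internal one. That window (chr5:17835897-17836146, minus strand) and that of Fabp3 (chr4:130308488-130308737, plus strand) are printed 5′ to 3′ with the match in capitals.
Cd36: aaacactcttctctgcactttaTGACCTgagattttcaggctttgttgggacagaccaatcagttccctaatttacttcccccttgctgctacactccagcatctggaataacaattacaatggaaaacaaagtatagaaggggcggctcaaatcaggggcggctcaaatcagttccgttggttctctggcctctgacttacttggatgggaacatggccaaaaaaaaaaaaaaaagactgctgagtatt
Fabp3: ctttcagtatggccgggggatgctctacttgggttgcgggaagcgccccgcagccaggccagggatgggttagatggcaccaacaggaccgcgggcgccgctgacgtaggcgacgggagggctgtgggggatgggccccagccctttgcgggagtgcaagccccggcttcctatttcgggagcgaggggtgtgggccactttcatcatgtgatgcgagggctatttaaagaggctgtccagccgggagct
A match of these letters is a description of the window and not a measured binding site.

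With rosiglitazone, averaged over the 4 groups, Angptl4, Fabp4 and Fabp5 rose above chow, by 2.39-fold, 1.79-fold and 1.92-fold. Cd36 (2.09-fold), Gpihbp1 (2.37-fold), Fabp3 (1.76-fold) and Lpl (1.64-fold) were also higher in the mean but did not pass the adjusted test, and Slc27a1 (1.11-fold) differed least. In limma 3 of the 8 genes were called higher, against 0.235% of all tested genes. The median difference of the 8 genes was 0.89 on the log2 scale, beside -0.02 over all tested genes, and 8 of 8 differences were above 0 against 45% of all genes. On the brightest probe set, every treated array lay above every chow array for 5 of the 8, Fabp3, Fabp4, Cd36, Gpihbp1 and Angptl4, against 0.804% of all genes. On the other probe sets of Fabp3, Cd36 and Angptl4, and on some but not all of those of Fabp4, treated and chow arrays overlapped. Levels of single arrays below are those of the brightest probe set unless another is named. The genes were chosen with earlier results of these data known, so the shares set side by side here and below are descriptions. In pooled tissue, a change in the number of cells of a type and a change in RNA per cell cannot be told apart. The count of called genes rested on single arrays. It was 0 without any of the 3 chow arrays, and 5, with Cd36 and Gpihbp1 added, without array B of the 3 mg 2-day group. Calls over all genes, higher or lower, fell too, from 48 to 3, 11 and 1 without chow array A, B and C. They rose to 83 without array B of the 3 mg 2-day group.

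**Figure D1:**
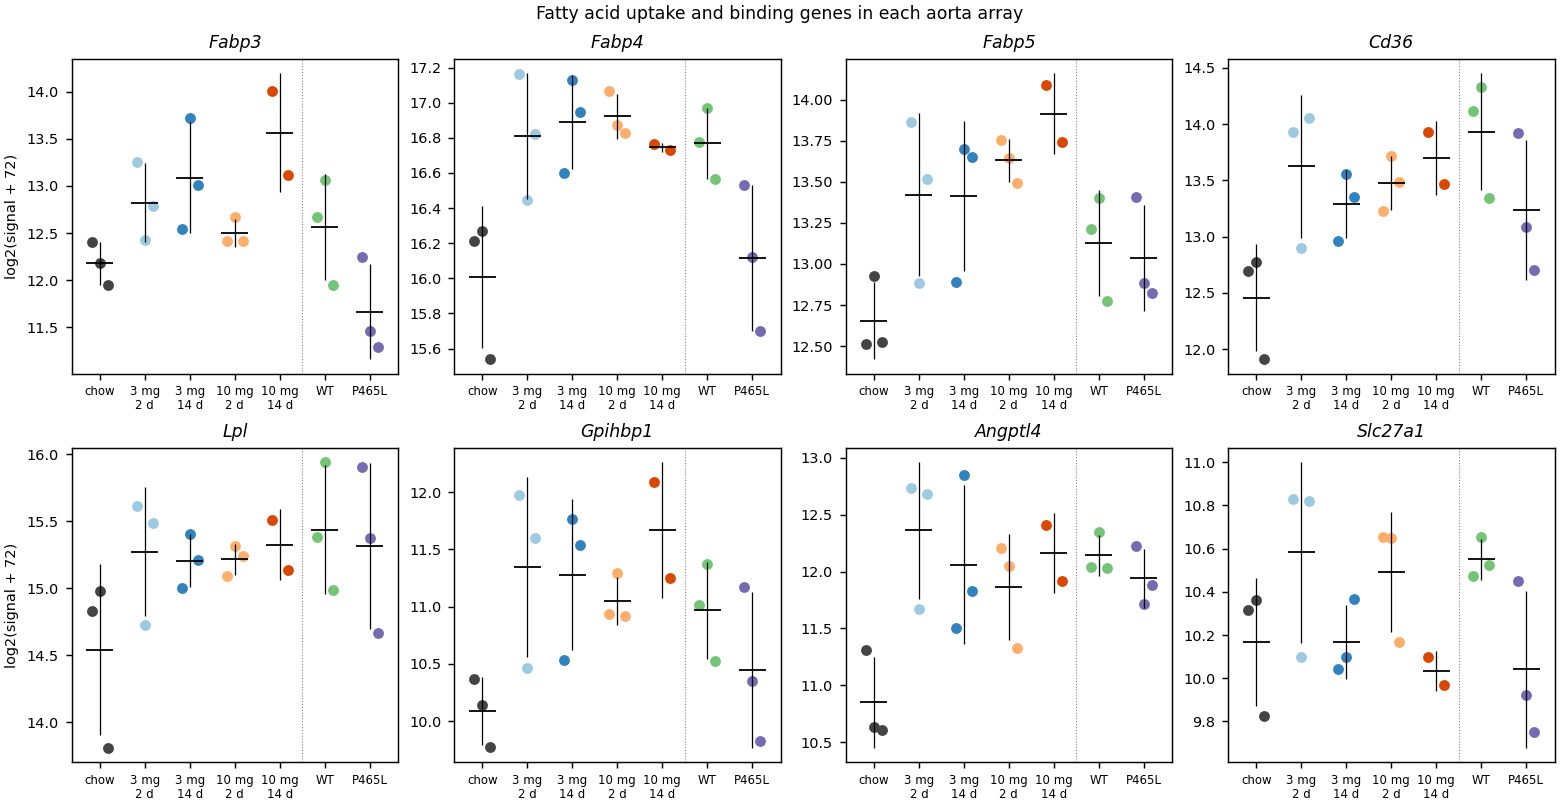
Level of each gene, log2(signal + 72), in the 20 arrays by group (WT, wild-type littermates; mg is mg/kg/day and d is days); points are arrays, horizontal lines are group means and vertical lines are 1 SD. The axes start at different values. The chow arrays are the lowest group for Fabp4, Fabp5, Cd36, Lpl, Gpihbp1 and Angptl4, while the untreated wild-type littermates are the highest group for Cd36 and Lpl.

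Of the genes of lipolysis in the vessel, Angptl4, the lipase inhibitor, measured 11.31, 10.64 and 10.61 in chow arrays A, B and C. At 3 mg/kg/day it measured 12.74, 11.67 and 12.68 after 2 days and 11.51, 12.84 and 11.83 after 14 days. At 10 mg/kg/day it measured 12.20, 12.05 and 11.33 after 2 days and 12.41 and 11.91 after 14 days. No treated array overlapped the chow arrays, although array C of the 10 mg 2-day group, at 11.33, lay just above chow array A. The average difference was 1.26 (SE 0.25, 95% interval 0.74 to 1.78, limma adjusted p = 0.0256). With chow array A left out the difference was 1.49 (adjusted p = 0.066), and it was 1.15 without B (0.151) and 1.14 without C (0.179). The call was also lost without array A of the 10 mg 14-day group (adjusted p = 0.058), with the mean of its probe sets (0.77, 0.0954) and with only the arrays of the rosiglitazone experiment in the fit (0.0518).

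Gpihbp1, the endothelial platform for the lipase, lay at 10.36, 10.14 and 9.77 in chow. The 11 treated arrays ran from 10.46 through a median of 11.29 to 12.09. All were above chow, the lowest being array B of the 3 mg 2-day group and array A of the 3 mg 14-day group (10.53). The average difference of 1.24 (SE 0.30, interval 0.62 to 1.87) was close to that of Angptl4 but had a wider spread, and its limma adjusted p was 0.0728. It passed without array B of the 3 mg 2-day group (0.0196) or array A of the 3 mg 14-day group (0.0337).

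Lpl itself measured 14.83, 14.98 and 13.81 in chow, and 14.72 to 15.61 with a median of 15.24 in the treated arrays. Chow array C was far below the other 2, and 10 of 11 treated arrays exceeded the highest chow array. The difference of 0.72 (SE 0.24, interval 0.21 to 1.22) did not pass (limma adjusted p = 0.180). Without chow array C it was 0.35 (adjusted p = 0.623).

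Of the uptake proteins, Cd36 measured 12.69, 12.77 and 11.91 in chow. At 3 mg/kg/day it reached 13.93, 12.90 and 14.05 after 2 days and 12.96, 13.56 and 13.35 after 14 days. At 10 mg/kg/day the values were 13.23, 13.72 and 13.48, then 13.93 and 13.46. The treated arrays were all higher than chow, the closest again array B of the 3 mg 2-day group. The average difference was 1.07 (SE 0.26, interval 0.53 to 1.60), and limma's adjusted p of 0.0728 missed the threshold.

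Slc27a1 had the smallest difference of the 8. It lay at 10.32, 10.36 and 9.82 in chow and from 9.97 to 10.83 in the treated arrays, of which 5 of 11 exceeded the highest chow array. The average difference of 0.15 had an interval of -0.20 to 0.50 (limma adjusted p = 0.741), which leaves room for a change of up to 1.42-fold. Its sign turned without chow array C (-0.02).

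Among the carriers, Fabp4 measured 16.21, 16.27 and 15.54 in chow. At 3 mg/kg/day it measured 17.16, 16.45 and 16.82 after 2 days and 16.60, 17.13 and 16.95 after 14 days, and at 10 mg/kg/day 17.07, 16.87 and 16.83, then 16.76 and 16.73. The treated arrays did not overlap chow. The difference was 0.84 (SE 0.17, interval 0.49 to 1.18, limma adjusted p = 0.0256). It fell to 0.60 without chow array C (adjusted p = 0.217), and the adjusted p was 0.0904 without A, 0.0602 without B, 0.0532 without array A of the 10 mg 14-day group and 0.0586 with no filter on low signal.

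Fabp5, its neighbour on chromosome 3, measured 12.52, 12.93 and 12.52 in chow. After 2 and 14 days at 3 mg/kg/day it measured 13.86, 12.89 and 13.52, then 12.89, 13.70 and 13.65. At 10 mg/kg/day it measured 13.75, 13.64 and 13.49, then 14.09 and 13.74. Chow array B overlapped 2 arrays of the lower dose, and none of the higher dose. The average difference was 0.94 (SE 0.19, interval 0.55 to 1.33, limma adjusted p = 0.0256). It was 0.87 without chow array A (adjusted p = 0.153) and without C (0.179), and 1.08 without B (0.0602). Without array A of the 10 mg 14-day group it was 0.90 (0.0599).

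Fabp3, the carrier of heart and muscle that brown fat also makes, measured 12.41, 12.18 and 11.95 in chow. It measured 13.25, 12.42 and 12.79 after 2 days at 3 mg/kg/day and 12.42, 12.67 and 12.42 after 2 days at 10 mg/kg/day. After 14 days it measured 12.54, 13.72 and 13.01 at the lower dose and 14.01 and 13.12 at the higher. All treated arrays were above chow, with 3 of the 2-day arrays at 12.42 only just above chow array A. The average difference was 0.82 (SE 0.25, interval 0.30 to 1.33, limma adjusted p = 0.140). Array A of the 10 mg 14-day group, the highest in Fabp3, was also the highest in cardiac muscle markers (10.98, against 9.61 to 10.32 in the other 19 arrays), and their part in the Fabp3 value was not tested.

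Taken group by group against chow, limma called 0 of the 8 genes in the 3 mg 2-day group and 0 in the 3 mg 14-day group, and 0% of all genes in either. At an unadjusted p under 0.05, 7 of the 8 were higher in each of these groups, beside 4.41% and 3.58% of all genes. In the 10 mg 2-day group it called 0 of the 8 and 0.135% of all genes. At the unadjusted threshold 6 of the 8 were higher, beside 5.68% of all genes, and Fabp4 came nearest (0.92, adjusted p = 0.0514). After 14 days at that dose it called 1 of the 8, Fabp5, at 2.39-fold (1.26, SE 0.26, adjusted p = 0.045), and 0.117% of all genes. That call was lost without any 1 of the 5 arrays it compares, with adjusted p-values of 0.0865 to 0.428. It was also lost with the mean of the probe sets (0.0616), where Fabp3 was called in its place. In the same group Fabp3 was higher by 1.39, Gpihbp1 by 1.58, Angptl4 by 1.31 and Cd36 by 1.24, with adjusted p-values of 0.109, 0.123, 0.123 and 0.150. Array B left out of the 3 mg 2-day group brought 1 call there, Angptl4.

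The dose made no difference that could be detected. Between 10 and 3 mg/kg/day limma called 0 of the 8 genes and 0% of all genes. An unadjusted p under 0.05 was reached by 0 of the 8, beside 5.71% of all genes higher and 6.98% lower. Fabp5 came nearest, higher by 0.35 at the larger dose (interval -0.01 to 0.72, adjusted p = 0.41). The intervals of the other 7 also included 0 and allowed differences in either direction. They ran for Fabp4 from -0.34 to 0.31, for Angptl4 from -0.69 to 0.29 and for Gpihbp1 from -0.54 to 0.63. In a limma fit over single probe sets the second one of Slc27a1 gave -0.46 (interval -0.81 to -0.11, adjusted p = 0.432). The dim second one of Angptl4 gave -0.59 (interval -1.09 to -0.09, adjusted p = 0.482). The intervals of the remaining dimmer probe sets included 0.

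Between 14 and 2 days of treatment limma likewise called 0 of the 8 genes and 0% of all genes. At an unadjusted p under 0.05, 1 of the 8 was higher and 1 lower, beside 1.86% and 2.33% of all genes. Fabp3 was higher at 14 days by 0.67 (SE 0.23, adjusted p = 0.999), and Slc27a1 was lower, at -0.44 (SE 0.16, adjusted p = 0.999). For Slc27a1 the 14-day means of 10.17 and 10.03 stood beside 10.58 and 10.49 at 2 days. Angptl4 differed by 0.00 with an interval of -0.49 to 0.49, and Fabp4 by -0.05. The dose by time interaction gave 0 calls among the 8 genes and 0% over all genes. At the unadjusted threshold it again gave 0 of the 8, beside 2.01% of all genes higher and 2.37% lower. Its largest value was 0.80 for Fabp3 (interval -0.17 to 1.76).

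The 2 untreated groups did not match. In the wild-type littermates of the second experiment Cd36, Angptl4 and Fabp4 were above the chow controls, by 2.78-fold, 2.45-fold and 1.70-fold. Limma called 3 of the 8 genes higher, against 2.61% of all genes. The 8 differences were all above 0, with a median of 0.82 beside -0.04 over all genes. On the brightest probe set, littermates and chow did not overlap for 6 of the 8, all but Fabp3 and Fabp5, against 11.8% of all genes. For Fabp4, Lpl, Angptl4 and Slc27a1 they overlapped on a dimmer probe set. Cohort and array processing cannot be told apart between these 2 groups.

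Cd36 measured 14.12, 14.33 and 13.34 in the littermates, 1.47 above chow (SE 0.32, limma adjusted p = 0.00914). These untreated arrays formed the highest group of the study for Cd36, and 0 of the 11 rosiglitazone arrays exceeded their highest. Angptl4 measured 12.04, 12.35 and 12.03, higher than chow by 1.29 (SE 0.31, adjusted p = 0.017), beside 1.26 for rosiglitazone against the same chow arrays. Fabp4 measured 16.77, 16.97 and 16.56, higher by 0.76 (SE 0.21, adjusted p = 0.0327). Lpl, at 15.38, 15.94 and 14.99, was 0.90 above chow (SE 0.30, adjusted p = 0.0801), and again no rosiglitazone array exceeded the highest littermate. All 3 calls were lost without chow array C or without littermate array B. Both arrays were the highest of their groups in skeletal muscle markers (11.66 and 12.94), and the part of that tissue was not tested. Fabp4 was also lost without littermate array A, and Angptl4 without chow array B. Fabp4 was lost too with no filter, with quantile normalization and without the variance trend, and Angptl4 with the mean of its probe sets.

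Fabp3 and Fabp5 stood nearer to chow in the littermates. Fabp5 measured 13.21, 13.40 and 12.77 there, a difference of 0.47 (interval -0.02 to 0.96, limma adjusted p = 0.239), and 9 of 11 rosiglitazone arrays lay above the highest littermate. Fabp3 measured 12.68, 13.06 and 11.95, a difference of 0.38 (interval -0.26 to 1.03, adjusted p = 0.501). Gpihbp1 measured 11.01, 11.37 and 10.52, a difference of 0.88 (interval 0.10 to 1.65, adjusted p = 0.164), and 5 of 11 rosiglitazone arrays exceeded the highest littermate.

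Set against both untreated groups together, the rosiglitazone average gave 4 calls among the 8 genes. They were Fabp5 (0.70, SE 0.15, adjusted p = 0.00587), Fabp4 (0.46, SE 0.13, adjusted p = 0.0349), Gpihbp1 (0.81, SE 0.23, adjusted p = 0.0368) and Fabp3 (0.62, SE 0.19, adjusted p = 0.0492), against 4.17% of all genes called higher. Angptl4 (0.61, adjusted p = 0.0548), Cd36 (0.33, adjusted p = 0.327) and Lpl (0.27, adjusted p = 0.41) did not pass, and Slc27a1 lay at -0.04. A second limma fit was made over single probe sets. There only Fabp5 of the 4 called genes kept its call on its brightest probe set (adjusted p = 0.00906). The brightest probe sets of Fabp3 (0.0694), Fabp4 (0.0668) and Gpihbp1 (0.0536) missed the threshold. A dimmer probe set passed for Fabp4 (0.000976), Fabp5 (0.0204) and Fabp3 (0.0493). The pooled control holds the same chow arrays, and the comparison with it crosses the 2 experiments and was chosen after the data were seen. A test against the littermates alone was not run. Beside the littermate mean the treated mean of Fabp4 was 0.08 higher, with 7 of 11 treated arrays inside the littermate range, and that of Fabp5 was 0.44 higher, with 2 of 11 inside it.

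**Figure D2:**
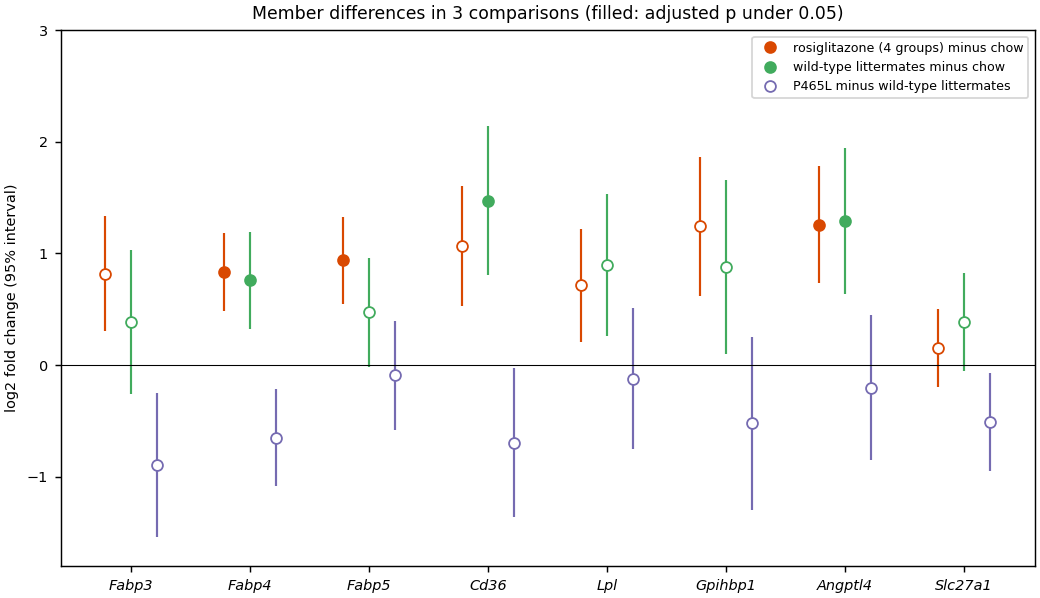
Log2 fold change of each gene in 3 comparisons; points are limma estimates, lines are 95% intervals and filled points have an adjusted p under 0.05. The rosiglitazone average and the wild-type littermates are both set against the same 3 chow arrays, and the littermates are also the control of P465L. The differences from chow lie above 0 for all 8 genes, the largest being Cd36 in the littermates (1.47), and those of P465L lie below 0 for all 8.

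In P465L mice the means of all 8 genes lay under those of the wild-type littermates, and none passed the test. Limma called 0 of the 8, and 0.00903% of all genes were called lower. At an unadjusted p under 0.05, 4 of the 8 were lower, Fabp3, Fabp4, Cd36 and Slc27a1, beside 3.57% of all genes. The median difference was -0.52, beside 0.01 over all genes. On the brightest probe set, P465L and littermate arrays did not overlap for 2 of the 8, Fabp4 and Slc27a1, against 6.99% of all genes. On every other probe set of Fabp4, P465L array A exceeded littermate array C.

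Fabp3 measured 12.24, 11.46 and 11.30 in P465L arrays A, B and C, the lowest group mean of the study. Its difference of -0.90 (SE 0.31, limma adjusted p = 0.615) was the largest of the 8, and array A overlapped littermate array C. Fabp4 measured 16.53, 16.12 and 15.70, a difference of -0.65 (SE 0.21, limma adjusted p = 0.52). Its other probe sets gave -0.57 (interval -1.38 to 0.25), -0.41 (interval -1.03 to 0.21) and -0.44 (interval -0.81 to -0.07). Cd36 measured 13.92, 13.08 and 12.71, a difference of -0.70 (SE 0.32, adjusted p = 0.662). Array A was the highest of the 3 for every one of the 8 genes, and for Cd36 it overlapped the littermates. Slc27a1 measured 10.45, 9.92 and 9.75 (-0.51, SE 0.21, adjusted p = 0.647).

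For the other 4 genes the interval of the difference from the littermates included 0. Lpl measured 15.90, 15.38 and 14.66 in P465L (-0.12, interval -0.76 to 0.51) and Fabp5 13.41, 12.88 and 12.82 (-0.09, interval -0.58 to 0.40). Angptl4 measured 12.22, 11.72 and 11.88 (-0.20, interval -0.85 to 0.45), so that the P465L arrays still lay above all 3 chow arrays. Gpihbp1 measured 11.17, 10.35 and 9.82 (-0.52, interval -1.30 to 0.26). The second probe set of Fabp5 gave -0.47 (interval -1.06 to 0.12). Differences between the genes were not tested.

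Ordered by group mean, most neighbouring groups differed by less than the larger of their SDs. Chow was lowest for Fabp5 (12.66), Cd36 (12.46), Lpl (14.54) and Angptl4 (10.85), and the step to the next group exceeded the larger SD for each of these 4. For Fabp4 the chow and P465L means (16.01 and 16.12) lay within an SD of each other, and the remaining 5 groups lay between 16.75 and 16.92. Fabp3 ran from P465L (11.67) and chow (12.18) to the 10 mg 14-day group (13.57). Slc27a1 had its lowest means in the 10 mg 14-day group (10.03) and in P465L (10.04), within an SD of each other.

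Fat markers moved with these genes in some comparisons and not in others. Against both untreated groups together, 6 of the 13 adipocyte markers were higher with rosiglitazone and 7 lower. Their median difference was -0.04, beside 0.53 for the 8 genes. Of the 8 brown adipocyte markers 6 were higher and 2 lower in that comparison, with a median of 0.32. The mean of the 13 adipocyte markers ran from 12.05 to 12.60 in chow, from 12.15 to 13.34 in the treated arrays, from 12.65 to 13.15 in the littermates and from 12.16 to 13.13 in P465L. Their summed signal was 130089 to 178916 in chow, 155388 to 324493 with rosiglitazone, 211012 to 322147 in the littermates and 153570 to 284823 in P465L. The mean differences were 0.26 (SE 0.24) for the rosiglitazone average, 0.55 (SE 0.29) for littermates against chow and -0.33 (SE 0.29) for P465L. For the 8 brown adipocyte markers the corresponding differences were 0.79 (SE 0.30), 1.03 (SE 0.37) and -0.87 (SE 0.37).

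Their summed signal was 47096 to 89598 in chow and 95301 to 221599 in the treated arrays, so that these did not overlap either, with 103685 to 196194 in the littermates and 50959 to 143869 in P465L. Of the 13 adipocyte markers 10 were higher with rosiglitazone and 0 were called (4 higher and 1 lower at an unadjusted p under 0.05). Of the 8 brown adipocyte markers 7 were higher and 0 were called (7 unadjusted). In P465L limma called 1 brown adipocyte marker lower, Elovl3, a fatty acid elongase (-2.35, SE 0.34, adjusted p = 0.00867). The part of fat tissue in the differences of the 8 genes was not tested. Endothelial markers differed by 0.01 with rosiglitazone, -0.02 between littermates and chow and -0.16 in P465L, and smooth muscle markers by -0.01, 0.06 and -0.09. Macrophage markers differed by -0.16, -0.27 and 0.08, and skeletal muscle markers by -0.14 (SE 0.91), 2.15 (SE 1.14) and -1.31 (SE 1.14).

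Within groups, where treatment and genotype are the same, each array's deviation from its group mean was set against its deviation in the adipocyte score, the mean of the 13 markers. All 8 genes went with the score. Other tested genes were not set against it, so whether this is particular to the 8 was not tested. Pearson's r was 0.94 for Gpihbp1 (rho 0.94), 0.92 for Fabp4 (0.89), 0.89 for Cd36 (0.83), 0.87 for Lpl (0.87), 0.87 for Fabp5 (0.85) and 0.86 for Fabp3 (0.89). It was lower for Slc27a1 (0.72, rho 0.66) and Angptl4 (0.64, rho 0.64). In exact permutation tests within groups (93312 arrangements, two-sided, 8 relations) p for r was 0.0126 for Slc27a1, 0.0201 for Angptl4 and at most 0.00148 for the other 6. The arrays share their depth and scaling, and these p-values are not adjusted.

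Without the 2 arrays farthest from the median score, array A of the 3 mg 2-day group and chow array C, r was 0.58 for Angptl4 (exact permutation p = 0.0542) and 0.64 for Slc27a1 (p = 0.0717), which no longer held. For the other 6 r stayed between 0.85 and 0.95. Chow array C, the lowest array in the score (12.05), was also the lowest chow array for Fabp3, Fabp4, Cd36, Lpl, Gpihbp1, Angptl4 and Slc27a1. Among the treated arrays the lowest score was that of array A of the 3 mg 14-day group (12.15), while array B of the 3 mg 2-day group (12.33) was the lowest for Fabp4, Fabp5, Cd36, Lpl and Gpihbp1.

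**Figure D3:**
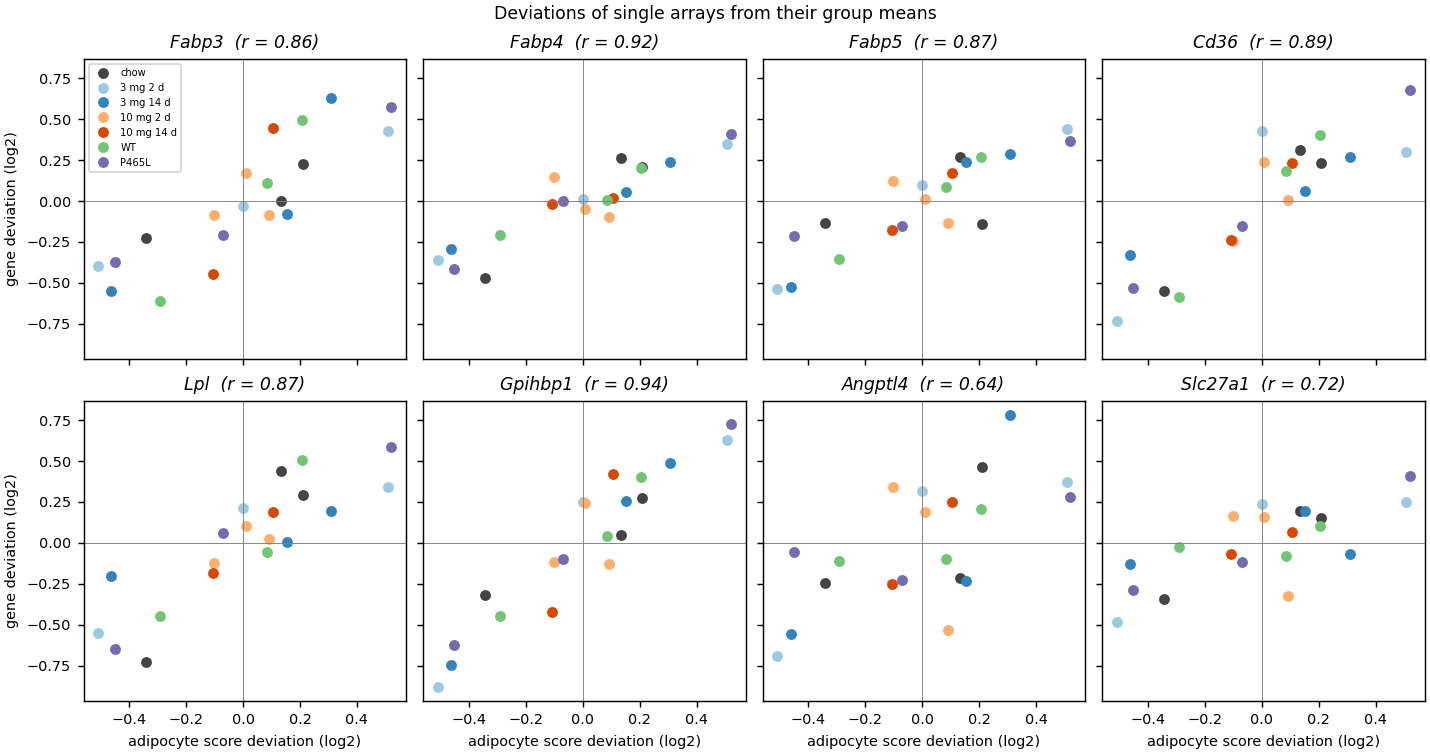
Deviation of each gene from its group mean (vertical, log2) against the deviation of the adipocyte score, the mean of 13 markers, from its group mean (horizontal, log2); each point is an array, coloured by group, and r is Pearson's over 20 arrays. Points rise along the diagonal for Gpihbp1 (r = 0.94) and scatter most for Angptl4 (r = 0.64).

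The probe sets of a gene mostly gave similar differences. All 4 probe sets of Fabp4 were higher with rosiglitazone, by 0.84 in the brightest and by 0.80, 0.94 and 1.34 in the others, the largest on one of the dimmer ones. Between littermates and chow the same probe sets gave 0.76, 1.07, 0.44 and 1.72, so the size of that Fabp4 difference depended on the probe set. Cd36 was higher by 1.07, 1.09 and 1.03 with rosiglitazone and Fabp5 by 0.94 and 1.10. Lpl was higher by 0.72 and 0.64.

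Some probe sets differed. The dim second probe set of Angptl4, whose levels of 6.26 to 7.68 lay under the filter, gave 0.28 (interval -0.26 to 0.81) beside 1.26. The second probe set of Fabp3, also mostly under the filter, gave 0.94 with rosiglitazone beside 0.82, but 0.02 in P465L beside -0.90 and 0.10 for time beside 0.67. The second probe set of Slc27a1 gave -0.035 beside 0.15 with rosiglitazone and -0.75 (interval -1.22 to -0.28) beside -0.51 in P465L. The P465L difference of Fabp3 thus rests on its brighter probe set.

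**Figure D4:**
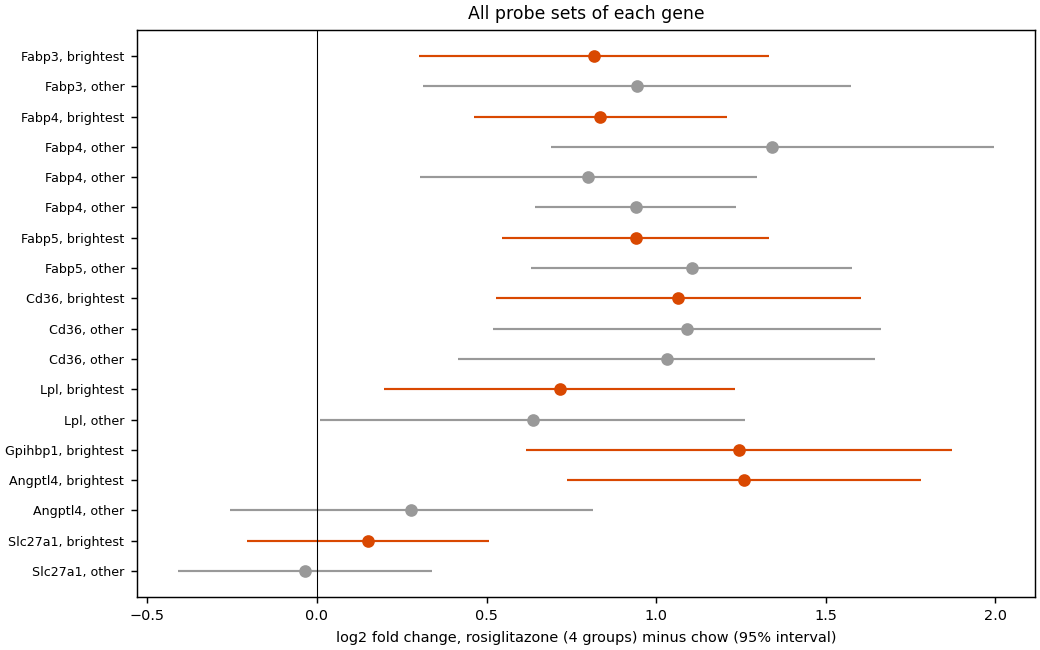
Log2 fold change between the rosiglitazone average and chow for all 18 probe sets of the 8 genes; points are limma estimates, lines are 95% intervals, and orange marks the brightest probe set of a gene. All probe sets of Fabp3, Fabp4, Fabp5, Cd36 and Lpl lie above 0 with their intervals, while those of Slc27a1 straddle 0.

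For each of the 8 genes, the 3 genes with the most similar levels over the 20 arrays were listed. For Cd36 they were Etfdh (Pearson r 0.95, rho 0.95), Hibch and Prkar2b, and for Lpl Hibch (r 0.93, rho 0.96), Gpam and Mtx2. Gpihbp1 went with Adhfe1 (r 0.96, rho 0.95), Dnajc15 and Ces1d, and Fabp4 with Cycs (cytochrome c; r 0.93, rho 0.88), Dnajc15 and Cidea. Fabp3 went with Apoc1 (r 0.93, rho 0.92), Cox8b and Aqp7, and Fabp5 with Ephx2 (r 0.91, rho 0.88), Sephs2 and Cox5a. Angptl4 stood nearest to the iron exporter Slc40a1 (r 0.91, rho 0.82), Pdk4 and Ppa1. Slc27a1 had no close match, its nearest being Prxl2a (r 0.78, rho 0.84), Hagh and Apmap. Among the 8 genes themselves r was 0.91 for Cd36 and Lpl and 0.29 for Fabp3 and Slc27a1. These values are descriptions across arrays that include the group differences.

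Other genes of fatty acid handling went both ways. Of 49 listed, 42 had a probe set and 26 passed the filter. With rosiglitazone 13 were higher and 13 lower, the median was 0.00, and limma called 0 (5 higher and 1 lower at an unadjusted p under 0.05). The transporter Slc27a2 (1.31, adjusted p = 0.17), Apoc1 (0.80, adjusted p = 0.334) and the acyl-CoA binding protein Dbi (0.48, adjusted p = 0.158), named after their values were seen, had the largest differences upward. Cavin1, a coat protein of caveolae, was called lower in the 10 mg 2-day group (-0.82, SE 0.15, adjusted p = 0.0235). Between littermates and chow limma called Furin, a protease that can cleave lipase, lower (-0.56, adjusted p = 0.00596) and Hspg2, the heparan sulfate proteoglycan perlecan, lower (-0.58, adjusted p = 0.0234). In P465L 17 of the 26 were lower and 0 were called (2 higher and 3 lower unadjusted), with Slc27a2 at -1.69 (adjusted p = 0.513). Against both untreated groups together Scarb1 (0.49) and Vldlr (0.17), both lipoprotein receptors, were called higher, and Cavin1 (-0.56), Acsl5 (-0.44) and Cpt1a (-0.24) lower.

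Of 10 listed PPAR receptors and partners 7 passed the filter. Pparg itself differed by 0.27 with rosiglitazone (adjusted p = 0.756), by 0.83 between littermates and chow (adjusted p = 0.209) and by -0.07 in P465L (adjusted p = 0.981), and since P465L is a point mutation its level is no check of the genotype. Ppara, the PPAR of fatty acid oxidation, was called in the littermates, 1.32 above chow (SE 0.33, adjusted p = 0.02). It differed by 1.03 with rosiglitazone (adjusted p = 0.0889) and by -0.76 in P465L (adjusted p = 0.647).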

How the data were processed

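RNA of 20 aorta pools was measured on Affymetrix arrays. The deposited intensity values are linear signals per probe set made with MAS5, per the submitters' processing notes; its settings are not given in the sources used here. In the deposited intensity table each array's mean signal was 1500 after 2% of the probe sets were set aside at each end, and no other normalization between arrays was seen. Medians ran from 321.3 to 450.7.

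Signals were analysed as log2(signal + 72), where 72 is the 20th percentile of all values. Such log2 values understate fold changes of dim genes. Of 45101 probe sets, 64 were controls, 34945 had 1 gene symbol, 932 several and 9160 none. Symbols were checked through the Entrez ID, found for 34741 probe sets, and 0 changed. Each gene took its brightest probe set, and the 11076 genes whose mean reached the 50th percentile of all probe sets (log2 8.73, a signal of 353.7) were tested.

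With limma 3.58.1 in R 4.3.3, group means were estimated in 1 model of all 20 arrays (13 residual and 7.3 prior degrees of freedom, variance trend on). Two-sided p-values were Benjamini-Hochberg adjusted across all tested genes, with 0.05 as the threshold for a call. Intervals are 95% intervals of that fit. A second fit over the 34945 probe sets with 1 symbol gave the values of single probe sets. The members, the gene lists and the comparisons were chosen with earlier results of these data known, and the named genes are all 9 members, list genes that passed the test (at most 6 per comparison, by size of change) and, for each member, the 3 genes with the most similar pattern. The comparison with both untreated groups together, and the other probe sets, were added after the data were seen. The fit was tested on simulated data.

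Alternatives covered the offset, the normalization, the filter, the summary of probe sets, the variance model, the arrays in the fit, array weights, letters as a block and each array left out. Python 3.11.15, numpy 2.4.6, pandas 2.3.3, scipy 1.17.1 and matplotlib 3.10.9 were used. The small number of arrays limits precision, and a p-value measures the spread between pools, which may in part be technical.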

Additional observations from a re-analysis of the deposited data

Results flagged for a closer look

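Slc27a1, the fatty acid transport protein, stood on opposite sides of chow at the 2 times of the higher dose. All 3 arrays of the 2-day group at 10 mg/kg/day (10.66, 10.65 and 10.17) lay at or above the chow mean of 10.17, and both of the 14-day group (10.10 and 9.97) lay below it. The group means differed by 0.46 on the log2 scale. The difference at this dose was not tested. It was seen on the brighter probe set only: the other lay below chow at both times, by -0.23 after 2 days and -0.30 after 14 days. The test of 14 against 2 days over both doses gave -0.44 (limma adjusted p = 0.999).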

How the results depend on the processing

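The number of the 8 genes called with the rosiglitazone average, 3, was 2 with no filter (Fabp4 lost), 0 without the variance trend and 5 with array weights, and ran from 0 to 5 with 1 array left out. It was 3 again with the mean of the probe sets, with Fabp3 in place of Angptl4, and with the arrays of 1 experiment alone, with Cd36 in place of Angptl4. In the second limma fit, over single probe sets, the brightest probe sets of Fabp4, Fabp5 and Angptl4 missed the threshold for the rosiglitazone average. The adjusted p was 0.0601 for Fabp4, 0.0508 for Fabp5 and 0.0508 for Angptl4, while another Fabp4 probe set passed (0.0289). The number called in the 3 mg/kg/day 2-day group was 0, and 0 to 1 with 1 array left out. In the 10 mg/kg/day 2-day group it was 0, but 1 (Fabp4) with quantile normalization, 4 with array weights and 1 (Fabp4) with the replicate block. In the 10 mg/kg/day 14-day group the 1 call was 0 with no filter, with the arrays of 1 experiment alone, without the variance trend, with the replicate block and in each fit with 1 array left out, and 5 with array weights. With the mean of the probe sets the 1 call was Fabp3 and not Fabp5. With array weights the calls over all genes also rose. They went from 48 to 266 for the rosiglitazone average. In the 10 mg/kg/day 2-day group they went from 56 to 612, and in the 14-day group from 30 to 257. Between littermates and chow the 3 calls were 0 to 3 with 1 array left out. There 2 remained with no filter, with quantile normalization and without the variance trend (Fabp4 lost each time, adjusted p = 0.0696, 0.0721 and 0.0567 in limma), and 2 with the mean of the probe sets (Angptl4 lost, 0.0941). The difference of Slc27a1 with rosiglitazone turned to -0.040 against both untreated groups and to -0.035 on its other probe set, and ran from -0.020 to 0.25 with 1 array left out. In P465L, with 1 array left out, Fabp5 ran from -0.28 to 0.045 and Lpl from -0.42 to 0.20. The causes were not tested. Array letters were not treated as pairs. Over 57 pairs of same-lettered arrays the median r of deviations was 0.03 (range -0.30 to 0.36), 19 being over 0.1. Arrays of different letters were not compared in this way, so whether the letters pair the samples was not tested. With the replicate block the rosiglitazone average still gave 3 calls. The 8 genes were above the filter on signal, and the small number of arrays limits their precision.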
